A study of Mus musculus with 6 samples.

Results

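Intergenic open chromatin lying far from any open promoter was compared between embryonic and newborn mouse nephron progenitors. Its members are the autosomal regions of the deposited table that carry no promoter, gene or exon entry and whose midpoint lies more than 100 kb from the midpoint of the nearest region entered as a promoter on the same chromosome. This rule took 9021 of 43523 distinct open regions (20.7%), and it used no count, although it was set with earlier results of these data known. The closest set, 7293 autosomal intergenic regions within 100 kb of an open promoter, is used below for contrast. Accessibility was measured by ATAC-seq, in which the Tn5 transposase cuts and tags DNA that is not covered by nucleosomes, so that more reads in a region mean a more accessible region. There were 3 libraries from embryonic day E14.5 and 3 from the day of birth (P0). All came from CD1 mice with no genetic change or drug named in the labels, and each library held progenitors from the pooled kidneys of a single litter, drawn from digested cortical cells with beads against the integrin Itga8. A library therefore averages over littermates, and the replicates are separate litters.

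Nephron progenitors are the mesenchymal cells that cap the tips of the ureteric bud and give rise to every epithelial segment of the nephron. They renew through fetal life and are used up soon after birth in the mouse, so E14.5 and P0 sample an early and a late point of the same pool. Open chromatin outside promoters is where enhancers are found, the DNA elements that bind transcription factors and act on a promoter that may lie far away along the chromosome. Long gene-poor stretches, called gene deserts, often flank genes of developmental regulators and of neuronal adhesion proteins, and hold many of the most distant elements. A flanking gene is a neighbour on the chromosome; which promoter a region acts on was not measured here.

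A small number of members turned out to hold the start of a RefSeq transcript that the deposited annotation does not enter as a promoter. Starts were listed for the chromosomes of 8639 of the 9021 members, and the remaining members were not checked. Of those checked, 192 held such a start. In 173 of these the 250 bases upstream lay wholly inside the region, which gave 194 windows whose sequence could be read. The region was past the test threshold described below in 13 of these members. The upstream windows of 6 of them, all at long noncoding RNAs, are printed as examples of sequence from far members that changed. These examples do not stand for changed members in general, few of which were found to hold a start. They were chosen after their values were seen, as 3 losses followed by 3 gains, each read from RefSeq on GRCm38.p6, from 5′ to 3′ on the strand of its long noncoding RNA. Their places are chr4:69262036-69262285 on the minus strand for Gm31905, chr2:106547059-106547308 on the plus strand for Gm36544 and chr13:78483214-78483463 on the plus strand for Gm32067, then chr12:43851504-43851753 on the minus strand for Gm33384, chr3:93128246-93128495 on the minus strand for Gm35785 and chr8:34473000-34473249 on the minus strand for Gm39160. Capitals mark any match, on either strand, to the core letters of 5 motifs: TGTTTAC for forkhead factors, CTTTGTT for Sox factors, TGANTCA for AP-1, TGACAG for Meis factors and GGCGGG for E2F factors.
Gm31905: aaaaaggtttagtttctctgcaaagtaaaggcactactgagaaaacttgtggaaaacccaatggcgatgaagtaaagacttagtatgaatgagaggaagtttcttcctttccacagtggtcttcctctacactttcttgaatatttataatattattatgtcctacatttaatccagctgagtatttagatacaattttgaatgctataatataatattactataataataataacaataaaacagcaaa
Gm36544: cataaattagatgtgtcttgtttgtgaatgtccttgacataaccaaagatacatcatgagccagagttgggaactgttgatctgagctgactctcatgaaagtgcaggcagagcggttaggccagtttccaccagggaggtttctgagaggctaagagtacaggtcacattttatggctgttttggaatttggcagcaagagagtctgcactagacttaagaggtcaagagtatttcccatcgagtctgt
Gm32067: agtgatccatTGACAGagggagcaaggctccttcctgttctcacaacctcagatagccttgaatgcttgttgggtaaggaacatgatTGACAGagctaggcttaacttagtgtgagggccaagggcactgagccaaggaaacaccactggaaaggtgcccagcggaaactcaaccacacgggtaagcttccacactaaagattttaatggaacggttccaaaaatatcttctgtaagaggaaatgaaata
Gm33384: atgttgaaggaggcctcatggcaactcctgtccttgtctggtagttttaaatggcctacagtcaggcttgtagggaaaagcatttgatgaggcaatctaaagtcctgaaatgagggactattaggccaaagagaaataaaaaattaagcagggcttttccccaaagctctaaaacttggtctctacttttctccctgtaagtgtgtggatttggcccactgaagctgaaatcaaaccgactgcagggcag
Gm35785: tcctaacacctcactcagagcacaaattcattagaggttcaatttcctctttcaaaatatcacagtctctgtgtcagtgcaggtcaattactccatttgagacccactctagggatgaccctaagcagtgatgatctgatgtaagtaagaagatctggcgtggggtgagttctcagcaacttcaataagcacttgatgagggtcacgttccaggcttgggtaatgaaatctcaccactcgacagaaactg
Gm39160: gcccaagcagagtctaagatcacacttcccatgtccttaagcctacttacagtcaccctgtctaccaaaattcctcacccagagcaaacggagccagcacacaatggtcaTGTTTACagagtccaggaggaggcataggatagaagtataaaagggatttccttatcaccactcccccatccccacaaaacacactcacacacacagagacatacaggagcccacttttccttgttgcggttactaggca

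Capitals appear in 2 of the 6 windows, with 2 Meis cores in that of Gm32067 and 1 forkhead core in that of Gm39160. Over all 194 windows inside members, the forkhead core was present in 3.09%, against 3.17% of the 32851 upstream windows of the same length in the RefSeq table. The shares were 5.15% against 5.03% for the Sox core, 7.22% against 6.75% for the AP-1 core, 23.2% against 15.9% for the Meis core and 28.9% against 32.5% for the E2F core. A match describes the letters only and was not tested as a binding site, and these windows cover few of the members.

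The label was checked against RefSeq. Midpoints of 1393 members (15.4%) fell in a RefSeq gene of some kind, mostly a long noncoding RNA (991 members), and in a protein-coding gene for 330 (3.66%). In all, 7515 members (83.3%) lay outside every RefSeq gene span. The libraries held 6492996 to 12292629 counts in all regions, and the median member had 89 to 143 counts in a library. Promoter regions of markers fixed for nephron progenitors were listed for 5 of 10 genes (Six2, Eya1, Osr1, Sall1 and Gdnf, without Cited1, Crym, Itga8, Meox1 and Uncx), and their summed level was 137 to 145 CPM (region counts scaled to a common library size) at E14.5 and 111 to 144 CPM at P0. Of the lists for other cells, immune and erythroid genes had no promoter region, and stroma (102 to 121 and 108 to 136 CPM), ureteric bud (81.7 to 93.1 and 75.8 to 82.4 CPM) and neural genes (256 to 293 and 238 to 271 CPM) overlapped between the stages. These last lists had promoter regions for 5 of 10, 3 of 9 and 4 of 7 genes. Markers of the differentiating nephron, with 4 of 8 genes listed, summed to 220 to 224 CPM at E14.5 and 192 to 266 CPM at P0, which overlapped. Endothelial markers, with 4 of 8 genes listed, summed to 96.2 to 103 CPM at E14.5 and 85.7 to 95.0 CPM at P0, which did not overlap. No promoter region in any marker list passed the test below. That test called only 120 of all 14097 promoter regions (0.851%), so few calls could be looked for in lists this short. The part of other cells in the results was not tested. A change in accessibility per cell and a change in the share of cells with an open region cannot be told apart in pooled cells.

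More far regions closed than opened between E14.5 and birth. Each region was tested with edgeR's quasi-likelihood test over all 43523 regions, and a region was called when its adjusted p (Benjamini-Hochberg) was under 0.05. Of the 9021 far members, 817 (9.06%) were called, where 4.73% of all regions were called. The 596 that fell at P0 made 6.61% of members, beside 2.94% of all regions, and the 221 that rose made 2.45%, beside 1.79%. In the nearer intergenic set, 345 of 7293 regions were called (4.73%), with 155 higher and 190 lower at P0. The share of members that fell was therefore 2.54 times that in the nearer set, and the share that rose was 1.15 times. No test compared these classes, since regions are not replicates. The libraries of the stages did not overlap in 815 of the 817 called members, and 602 changed by 2-fold or more.

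At the level of values, members that fell went from a median of 17.3 CPM at E14.5 to 7.11 CPM at P0, with a median log2 fold change of -1.20. Their median was 15.7, 16.6 and 19.3 CPM in the E14.5 libraries and 6.82, 7.42 and 7.26 CPM in the P0 libraries. Members that rose went from 9.80 to 19.96 CPM, a median log2 fold change of 1.04, with library medians of 9.13, 10.9 and 8.41 CPM at E14.5 and 20.7, 20.6 and 18.3 CPM at P0. These medians describe regions that were selected by the test. Over all 9021 members the median log2 fold change was 0.09 (interquartile range -0.26 to 0.37), against 0.01 over all regions and 0.06 over nearer intergenic regions. The median of members was -0.040 without P0 replicate 2 and 0.0064 when only intergenic regions were fitted. Every P0 library lay below every E14.5 library in 15.9% of members, where this held for 12.4% of all regions, and above in 13.3%, where it held for 11.8%.

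The far regions took a like share of the reads at the 2 stages. They held 12.1%, 14.55% and 12.5% of region counts in the E14.5 libraries and 13.9%, 15.2% and 12.6% in the P0 libraries. The means were 13.1% ± 1.30 (SD, n = 3) and 13.9% ± 1.30 (SD, n = 3), and the libraries overlapped. In each library 1 region alone held 5.95% to 11.8% of region counts. Without that region the means were 14.4% ± 1.05 (SD, n = 3) and 15.2% ± 1.75 (SD, n = 3), and the libraries again overlapped. A difference between the stages in this share was not detectable beyond the spread between libraries.

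Losses became more frequent with distance from an open promoter. From 100 to 200 kb, 155 of 3313 members fell (4.68%), and the share was 6.40% from 200 to 300 kb (117 of 1829), 7.38% from 300 to 500 kb (140 of 1898) and 8.50% from 500 to 1000 kb (124 of 1459). Beyond 1 Mb, 60 of 522 members fell (11.5%). Gains did not follow the same order, with 88, 44, 51, 30 and 8 members in these classes, and made 2.66% of the nearest class and 1.53% of the farthest. Losses therefore made up 63.8% of the calls at 100 to 200 kb and 88.2% beyond 1 Mb. Within the nearer set, losses were 1.39% of regions up to 25 kb, 2.38% to 50 kb, 4.42% to 75 kb and 2.75% to 100 kb. At the 100 kb limit itself, 32 of 450 regions at 100 to 110 kb were called (16 higher, 16 lower), and 21 of 496 at 90 to 100 kb (10 higher, 11 lower).

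The median member lay 261 kb from an open promoter (interquartile range 160 to 457 kb) and the farthest 2.80 Mb. Members that fell had a median distance of 329 kb, those that rose 234 kb, and those not called 258 kb. For calls of either direction, the contrast of far with nearer regions held at each level of accessibility: the called share was higher in far regions in each of 4 classes of mean CPM (6.73% against 3.09%, 9.69% against 5.45%, 10.0% against 4.58% and 9.65% against 5.94%). It was also higher in each of 3 classes of region width, at 9.41% against 4.25% in the narrowest, 11.2% against 5.37% in the middle and 6.79% against 4.61% in the widest. Gains alone did not follow in every class: they were 1.17% of far and 1.39% of nearer regions in the class of lowest CPM, and 1.92% against 2.03% in the widest regions.

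**Figure D1:**
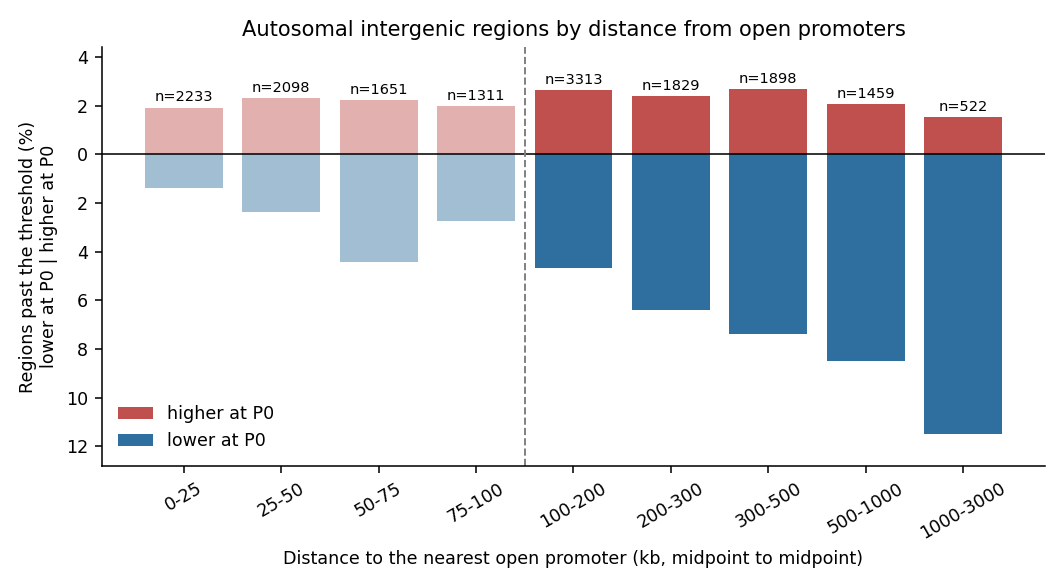
Percentage of autosomal intergenic regions past the threshold (vertical axis, higher at P0 above 0 and lower at P0 below 0) by distance to the nearest open promoter in kb (horizontal axis); the dashed line marks 100 kb and n gives the regions in each class. The share lower at P0 grew from 4.68% at 100 to 200 kb to 11.5% beyond 1 Mb.

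The number of calls rested on which libraries were in the fit. Without E14.5 replicate 3, 161 members were called (12 higher, 149 lower), and without P0 replicate 1, 224 (24 higher, 200 lower). Without E14.5 replicate 1 there were 473 (59 higher, 414 lower) and, with P0 replicate 2 left out, 639 (133 higher, 506 lower). Without E14.5 replicate 2, the calls rose to 1117 and the split became near even, with 551 higher and 566 lower. Without P0 replicate 3 there were 859 (279 higher, 580 lower). The contrast with the nearer set kept its direction for losses in each of 14 other fits, which are these 6 and 8 that changed the scaling, the filter, the tool, the block or the regions fitted, with a ratio between 2.06 and 2.94. For gains it did so in 13 of 14, the exception being the fit without P0 replicate 2, where the ratio was 0.94. The larger share of losses beyond 1 Mb than at 100 to 200 kb was present in 14 of 14, with ratios of 2.38 to 4.04.

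**Figure D2:**
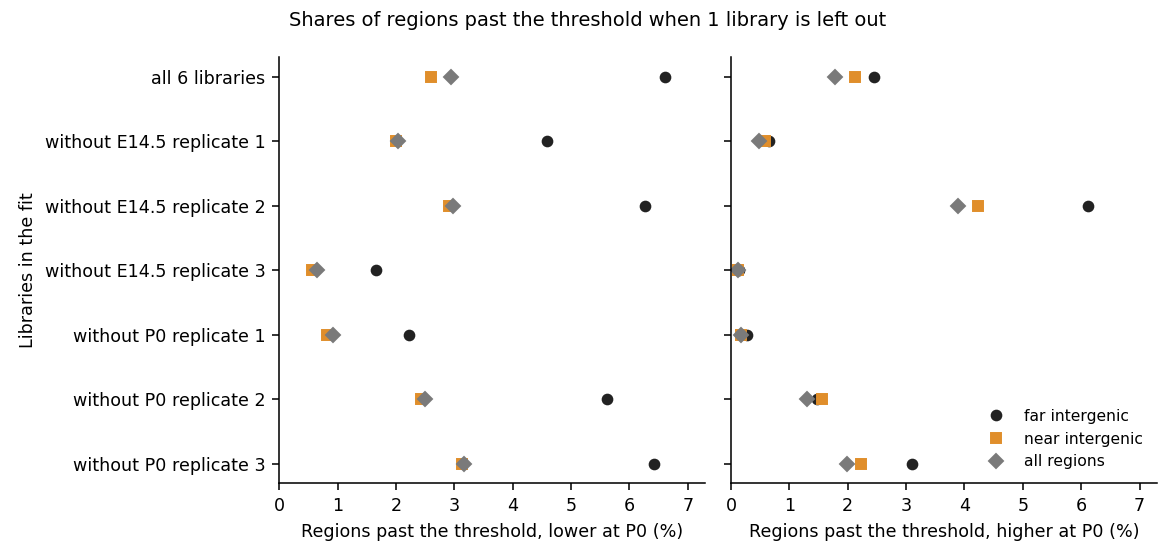
Percentage of regions past the threshold, lower at P0 (left) and higher at P0 (right), for far intergenic regions, nearer intergenic regions and all regions (markers), with all 6 libraries and with each library left out (rows). Far regions lay to the right of nearer ones for losses in every row, while the share of gains moved most between rows, from 0.13% to 6.11% of far regions.

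Among the 8 largest losses, the strongest was in the desert between Ptprd, a receptor tyrosine phosphatase that organises synapses, and Tyrp1, an enzyme of melanin synthesis. This region, chr4:78455885-78457006, gave 9.61, 17.2 and 17.5 CPM at E14.5 and 1.77, 1.82 and 1.97 CPM at P0. Its mean went from 14.8 ± 4.47 to 1.85 ± 0.107 CPM (SD, n = 3), a log2 fold change of -2.98 (SE 0.32, edgeR adjusted p = 0.00109). The next by size, chr12:64335088-64335868 between Lrfn5, a synaptic adhesion molecule, and Fscb, a sperm tail protein, fell from 9.65 ± 1.70 to 1.61 ± 0.638 CPM (log2 fold change -2.59). The libraries of the stages did not overlap in either region, and each stayed past the threshold in all 14 other fits.

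A region 506 kb from Brinp1, a gene of the nervous system, was the most accessible of the 8 at E14.5. At chr4:69459511-69461027 it gave 26.0, 30.7 and 41.1 CPM, then 4.69, 4.69 and 7.26 CPM at P0, so that its mean fell from 32.6 ± 7.74 to 5.55 ± 1.49 CPM (SD, n = 3; log2 fold change -2.53, SE 0.25, edgeR adjusted p = 0.000725). The window of Gm31905 printed above comes from another member of the same desert, between Brinp1 and the centrosome gene Cdk5rap2. That member gave 19.9, 19.7 and 23.1 CPM at E14.5 and 6.46, 10.1 and 6.47 CPM at P0 (log2 fold change -1.46, SE 0.24, edgeR adjusted p = 0.00391). In both, the lowest E14.5 library lay above the highest P0 library.

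Another 4 of these losses were flanked by genes of varied function. They lay between 1700017N19Rik and the glycosyltransferase gene Mgat4c (chr10:101329832-101330889, log2 fold change -2.55) and between the sialyltransferase gene St3gal1 and the zinc finger gene Zfat (chr15:67655171-67656183, -2.49). The last 2 lay between Ankrd7 and the potassium channel gene Kcnd2 (chr6:20672839-20674157, -2.47) and between the ephrin receptor gene Epha3 and Pros1, which encodes an anticoagulant protein (chr16:63517330-63518349, -2.45). Their adjusted p (edgeR) ranged from 0.00109 to 0.00285, and each stayed past the threshold in all 14 other fits.

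**Figure D3:**
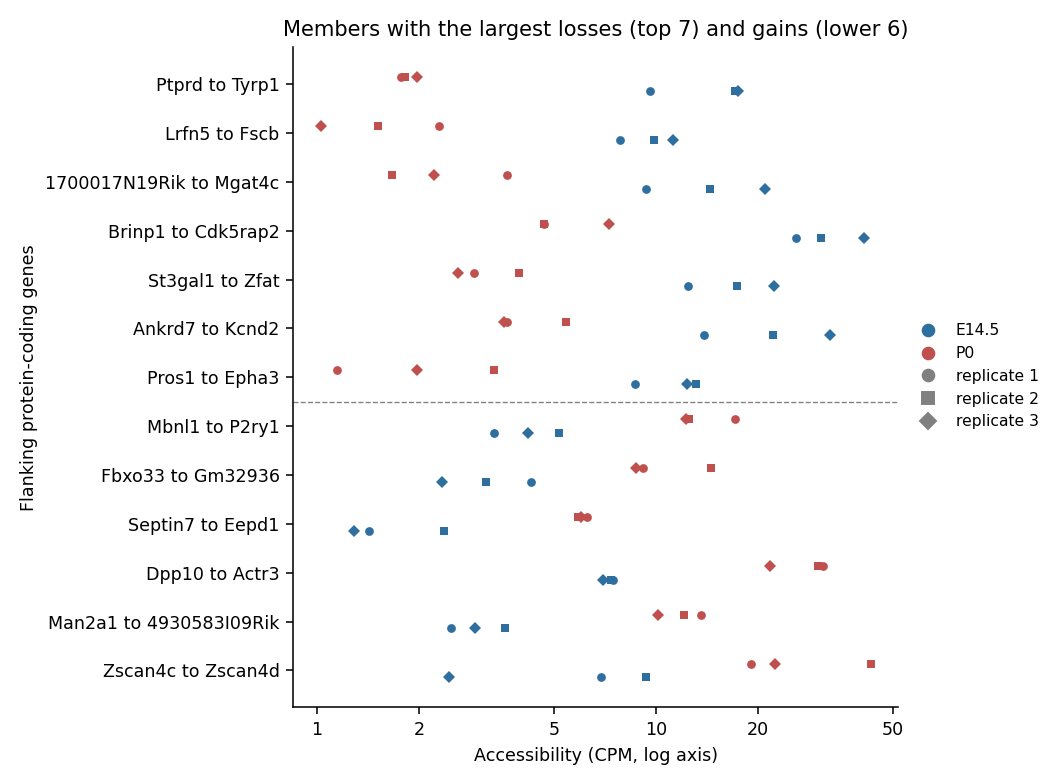
Accessibility in CPM (horizontal log axis) of 7 of the 8 members with the largest losses and the 6 with the largest gains (rows, named by flanking protein-coding genes), one marker per library, E14.5 in blue and P0 in red, with replicates told apart by shape. In all 13 members every library of a stage lay on the same side of every library of the other stage, as the rule for naming them required.

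Gains were smaller in size than the losses at the top of the list. The largest by fold, chr7:11034082-11035745 between Zscan4c and Zscan4d, went from 6.88, 9.37 and 2.45 CPM to 19.2, 43.1 and 22.5 CPM, but these genes belong to a family of close copies, and how reads were placed among copies was not tested. Next came chr17:64827004-64828148 between Man2a1, a Golgi mannosidase gene, and 4930583I09Rik, with 2.49, 3.59 and 2.92 CPM at E14.5 and 13.6, 12.1 and 10.2 CPM at P0 (3.00 ± 0.554 to 12.0 ± 1.73, SD, n = 3; log2 fold change 1.98, SE 0.29, edgeR adjusted p = 0.00252). Another, chr1:125241420-125243353 between Dpp10, a partner of potassium channels, and Actr3, an actin-nucleating subunit, held 7.47, 7.36 and 7.01 CPM and then 31.2, 30.1 and 21.8 CPM (log2 fold change 1.92, SE 0.22, edgeR adjusted p = 0.00109). In these regions the E14.5 libraries all lay below the P0 libraries.

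Of the remaining 3, 2 were less steady. A narrow region between Septin7, a cytoskeletal GTPase gene, and Eepd1 (chr9:25379518-25379951) rose from 1.69 ± 0.588 to 6.05 ± 0.178 CPM (SD, n = 3; log2 fold change 1.81, edgeR adjusted p = 0.0125) but passed in 11 of 14 other fits. It missed the threshold without E14.5 replicate 1 (edgeR adjusted p = 0.0551), without E14.5 replicate 3 (0.0908) and with P0 replicate 1 left out (0.0746). A region between Fbxo33 and Gm32936 (chr12:59720393-59721513, log2 fold change 1.72) was lost only without E14.5 replicate 3 (edgeR adjusted p = 0.0708). The region between the splicing factor gene Mbnl1 and the nucleotide receptor gene P2ry1 (chr3:60856571-60857617) rose from 4.23 ± 0.923 to 14.0 ± 2.68 CPM (log2 fold change 1.71) and passed in all 14.

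The 3 gains whose windows are printed above were more open at E14.5 than any of those 6. The member with the start of Gm33384 gave 14.47, 32.1 and 16.2 CPM at E14.5 and 50.5, 43.1 and 47.0 CPM at P0 (log2 fold change 1.15, SE 0.26, edgeR adjusted p = 0.0217). There, E14.5 replicate 2 was the highest E14.5 library and still lay under the lowest P0 library. The members of Gm35785 (log2 fold change 1.12) and Gm39160 (1.01) also rose, and those of Gm36544 (-1.03) and Gm32067 (-1.03) fell, with edgeR adjusted p from 0.0102 to 0.0443. Of the 192 members found to hold a RefSeq start, 5 rose and 8 fell (6.77%), beside 9.11% of the other 8829. Those others include the members that were not checked for a start.

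Called members were spread over many deserts. Of 1976 intervals between neighbouring protein-coding genes that held a member, 501 held a called one and 177 held 2 or more. All calls were losses in 94 of these 177, all were gains in 17, and 66 held calls of both directions. The 3 with most calls had 7 each. Between Cdh8 and Cdh11, which encode type II cadherins, 7 of 21 members fell and none rose; between Lrrc4c, a postsynaptic adhesion gene, and Iftap, 7 of 31 fell and none rose; between Slc10a2, the bile acid transporter gene of the ileum, and Efnb2, an ephrin ligand gene, 5 of 40 fell and 2 rose. These counts were the highest of 1976 and so had to be high. Without E14.5 replicate 3 they were 2, 0 and 0, without P0 replicate 1 they were 3, 1 and 0, without E14.5 replicate 1 they were 5, 5 and 2, and without P0 replicate 2 they were 5, 6 and 4.

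Within the cadherin desert the region nearest to Cdh11 among those that fell was also the one with the largest change. It lay 78.2 kb from the gene at chr8:102553113-102554690 and gave 33.3, 26.7 and 37.3 CPM at E14.5 and 7.08, 9.99 and 13.4 CPM at P0. Its mean fell from 32.4 ± 5.33 to 10.2 ± 3.17 CPM (SD, n = 3; log2 fold change -1.66, SE 0.24, edgeR adjusted p = 0.00249). Its neighbour among the called regions, chr8:102495394-102497666, went from 28.9, 37.9 and 43.9 CPM to 12.0, 12.4 and 15.3 CPM (log2 fold change -1.47, SE 0.21, edgeR adjusted p = 0.00242). A member closer still to Cdh11, at 35.6 kb, gave 40.0, 47.7 and 38.0 CPM and then 34.0, 27.8 and 40.4 CPM, which overlapped, and was not called (edgeR adjusted p = 0.481). Regions of the same desert thus differed in whether they were called, and the median over its 21 members was -0.20.

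In the Lrrc4c desert the most open region that fell, chr2:101319135-101322628, gave 43.5, 53.4 and 61.0 CPM at E14.5 and 23.4, 24.5 and 29.0 CPM at P0 (log2 fold change -1.03, SE 0.20, edgeR adjusted p = 0.00990). In the Slc10a2 to Efnb2 desert, chr8:8182036-8183964 went from 22.9, 29.1 and 29.7 to 9.89, 13.5 and 15.9 CPM (log2 fold change -1.05, SE 0.22, edgeR adjusted p = 0.0142). Another region there rose: chr8:8334335-8336440 gave 22.2, 20.4 and 18.8 CPM and then 35.6, 32.4 and 30.2 CPM (log2 fold change 0.68, SE 0.19, edgeR adjusted p = 0.0494). The stages did not overlap in any of these 3 regions, and the gain lay just inside the threshold. Over all members, pairs of neighbours on a chromosome in which both were called went the same way in 5 of 9 pairs within 10 kb, 18 of 26 pairs at 10 to 50 kb and 29 of 32 pairs at 50 to 200 kb, where losses made 72.9% of all calls. Over all neighbouring pairs, called or not, log2 fold changes correlated weakly (Pearson r of 0.11 over 1099 pairs, 0.04 over 2913 and 0.09 over 2702), in the same libraries, which is given as a description and is no finding.

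**Figure D4:**
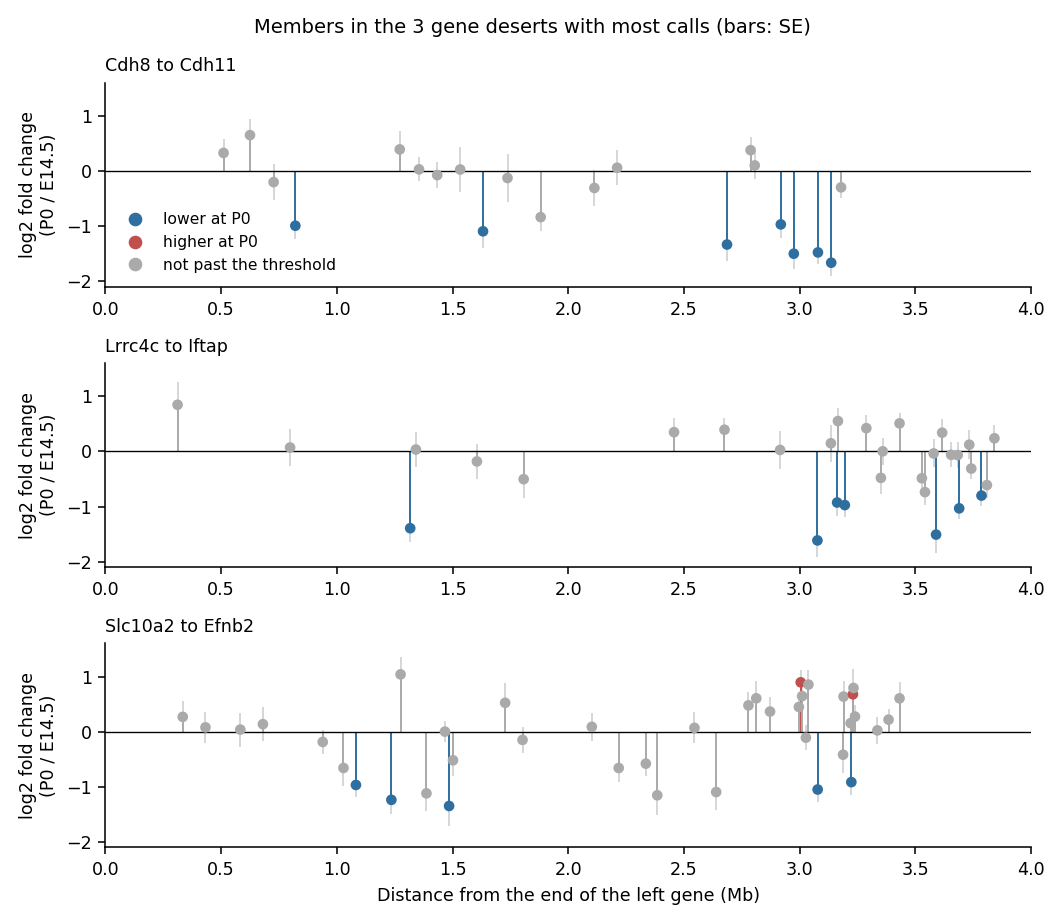
Fitted log2 fold change (P0 over E14.5, vertical axis, bars show SE) of each member in the 3 gene deserts with most calls, by distance from the end of the left flanking gene in Mb (horizontal axis). Blue points fell, red points rose and grey points were not called; 7 points are coloured in each desert, and the only red ones are 2 in the Slc10a2 to Efnb2 desert.

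Genes of kidney development flanked 410 members, through 42 of the 75 genes in the list. Of these members 12 rose and 22 fell (8.29% called), beside 8.25% of the 6098 members with no listed flanking gene, and their median log2 fold change was 0.21, beside 0.09 over all members and 0.01 over all regions. Without E14.5 replicate 3, and likewise without P0 replicate 1, none rose and 4 fell; without E14.5 replicate 1, 2 rose and 16 fell; without E14.5 replicate 2, 38 rose and 20 fell; with P0 replicate 2 left out, 5 rose and 21 fell. Near ligand genes, chr8:40032420-40033382 lay 246 kb from Fgf20, whose product helps to maintain nephron progenitors, and gave 14.23, 19.9 and 18.7 CPM at E14.5 and 3.64, 4.69 and 6.31 CPM at P0. This was a fall from 17.6 ± 2.98 to 4.88 ± 1.35 CPM (SD, n = 3; log2 fold change -1.84, SE 0.27, edgeR adjusted p = 0.00242). A region 607 kb from Bmper, which encodes a secreted BMP-binding protein, and 6.0 kb from Npsr1 fell from 12.0 ± 1.10 to 3.30 ± 0.872 CPM (chr9:24091331-24092539, log2 fold change -1.84). One 186 kb from Slit2, a guidance ligand that limits budding of the ureter, gave 12.3, 21.3 and 17.6 CPM and then 5.73, 7.42 and 5.76 CPM (chr5:47794664-47795950, log2 fold change -1.45, edgeR adjusted p = 0.00629). In each of the 3 every P0 library was below every E14.5 library.

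The desert between Cdh6, a cadherin of early tubule precursors, and Cdh9 held 32 members counted with Cdh6, of which 2 rose and 3 fell. The clearest loss there, chr15:15391576-15393392, was almost the same in all libraries of a stage, with 18.6, 19.4 and 19.0 CPM and then 7.18, 7.57 and 6.95 CPM (log2 fold change -1.40, SE 0.21, edgeR adjusted p = 0.00300). This desert also held the 3 members farthest from any open promoter, at 2804, 2742 and 2657 kb, none of which was called with all 6 libraries. The second of them had a log2 fold change of 0.61 (edgeR adjusted p = 0.281), which became 1.12 and passed the threshold without E14.5 replicate 2 (edgeR adjusted p = 0.0183). The farthest gave 6.64, 16.4 and 5.61 CPM at E14.5 and 8.64, 7.26 and 7.66 CPM at P0, which overlapped. By gene, Meis1, a homeobox gene active in kidney mesenchyme, flanked 25 members with 3 gains and no loss (median 0.32), Osr1, a regulator of the earliest kidney field, 15 members with 2 gains and 1 loss, and Slit2 36 members with 4 losses. Eya1, a partner of homeobox proteins in the kidney, flanked 13 members with 1 gain and 1 loss, Gata3, a factor of the ureteric lineage, 27 with 2 losses, and Itga8, the integrin used to select the cells, 5 with 1 loss.

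Genes of neuronal adhesion and synapses flanked more members, and more of these fell. Of 1564 members, 171 fell (10.9%) and 39 rose, so that 13.4% were called beside 8.25% of members with no listed gene, of which 5.69% fell. The median log2 fold change was 0.05, beside 0.09 over all members. This list was drawn up after earlier results of these data were known, so its count is not independent evidence. Its members also lay farther from open promoters, with a median of 489 kb against 233 kb. The called share was 10.5% against 7.82% at 100 to 300 kb and 14.8% against 8.97% beyond 300 kb. Without E14.5 replicate 3, 60 of its members fell and 3 rose. Leaving out P0 replicate 1 gave 71 and 4, E14.5 replicate 1 gave 119 and 11, P0 replicate 2 gave 146 and 21, and E14.5 replicate 2 gave 159 and 97. The share that fell was above that of members with no listed gene in all 14 other fits.

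By gene, 51 of the 81 flanking genes of the list had more losses than gains, 7 had more gains, 4 had equal numbers and 19 had no call. The most losses were beside Cdh8 (12 of 41 members), Slitrk1, a postsynaptic adhesion gene (9 of 40), and Flrt2, a gene of cell adhesion and repulsion (9 of 81). Slitrk6 had 7 of 17, of which 6 lie in the interval it shares with Slitrk1 and are counted for both. In the other direction, Csmd1 flanked 27 members with 3 gains and no loss and Robo1, a guidance receptor gene, 46 with 3 gains and 1 loss, while none of the 29 members beside Cntnap5b was called. Among single regions, in the desert between the protocadherin genes Pcdh20 and Pcdh9, chr14:89650551-89652159 gave 27.4, 32.0 and 32.8 CPM at E14.5 and 6.87, 8.32 and 7.34 CPM at P0 (30.7 ± 2.91 to 7.51 ± 0.741, SD, n = 3; log2 fold change -2.04, SE 0.20, edgeR adjusted p = 0.000725). The stages were separated by a wide gap, and the region stayed past the threshold in all 14 other fits.

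Counts around genes of transcription factors are given beside the 9.06% of all members and the 8.25% of members with no listed gene that were called. Homeobox genes flanked 292 members (6 rose, 17 fell, 7.88% called, median log2 fold change 0.06), and 82 of these, with 4 of the gains and 3 of the losses, were also counted in the kidney list, through genes such as Meis1 and Irx1. Nuclear receptor, zinc finger, T-box and other regulator genes flanked 476 (6 rose, 31 fell, 7.77%, median 0.11). The other regulators in that list include genes such as Hand2 and Nfia. Sox and forkhead genes flanked 131 (3 rose, 3 fell, 4.58%, median 0.03). In this order the called shares were 6.47%, 6.08% and 3.70% at 100 to 300 kb, beside 7.82% of members with no listed gene, and 10.99%, 9.86% and 6.00% beyond 300 kb, beside 8.97%. In the order of these lists, calls fell to 5, 6 and 1 without E14.5 replicate 3, to 8, 10 and 4 without P0 replicate 1 and to 12, 25 and 4 without E14.5 replicate 1, and those without E14.5 replicate 2 were 30, 53 and 9.

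Near Isl1, a LIM homeobox gene of motor neurons and heart progenitors, 4 of 28 members fell and none rose. The strongest of them, chr13:116017520-116018422, gave 13.8, 13.7 and 20.1 CPM at E14.5 and 2.29, 4.09 and 2.68 CPM at P0 (15.8 ± 3.68 to 3.02 ± 0.944, SD, n = 3; log2 fold change -2.42, SE 0.30, edgeR adjusted p = 0.00116). Near Nr2f1, an orphan nuclear receptor gene, 5 of 35 fell and none rose, and chr13:78783023-78784792 went from 27.0, 34.8 and 31.5 to 10.8, 14.53 and 11.3 CPM (log2 fold change -1.36, SE 0.20, edgeR adjusted p = 0.00285). A region 333 kb from Gli3, an effector of Hedgehog signalling, fell from 30.3 ± 6.84 to 11.7 ± 1.22 CPM (chr13:15129235-15131456, log2 fold change -1.37). No library of a stage crossed into the other stage's range in these regions.

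A region 2217 kb from Zeb2, a zinc finger repressor gene, and 1480 kb from the activin receptor gene Acvr2a also fell, from 15.5 ± 4.00 to 4.69 ± 0.797 CPM (chr2:47333867-47335276, SD, n = 3; log2 fold change -1.75). One between Pax1 and the forkhead gene Foxa2, chr2:147609100-147611343, gave 20.2, 18.9 and 22.9 CPM and then 9.37, 9.99 and 8.53 CPM (log2 fold change -1.16, SE 0.21, edgeR adjusted p = 0.00658), but it missed the threshold without E14.5 replicate 3 (edgeR adjusted p = 0.0581). A gain 839 kb from Klf6, a Krüppel-like factor gene, was steadier: chr13:5021221-5023739 gave 15.9, 10.6 and 11.1 CPM and then 29.6, 35.3 and 28.4 CPM (log2 fold change 1.31, SE 0.21, edgeR adjusted p = 0.00401), and it passed in all 14 other fits.

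Genes of secreted ligands, receptors and antagonists flanked 398 members, of which 10 rose and 25 fell (8.79% called, median log2 fold change 0.09). The called share was close to the 9.06% of all members, and 110 of these members, with 8 of the losses, were also counted in the kidney list. Without E14.5 replicate 3 there were 5 calls, without P0 replicate 1 there were 7, without E14.5 replicate 1 there were 20 and without E14.5 replicate 2 there were 56. The largest gain was 230 kb from Igfbp3, whose product binds insulin-like growth factors in the circulation. This region, chr11:7445277-7446337, gave 6.999, 7.18 and 4.09 CPM at E14.5 and 22.7, 19.2 and 16.0 CPM at P0 (6.09 ± 1.74 to 19.3 ± 3.34, SD, n = 3; log2 fold change 1.65, SE 0.26, edgeR adjusted p = 0.00347). A region 335 kb from Gdf6, a BMP family ligand gene, fell from 15.9 ± 2.59 to 4.90 ± 1.34 CPM (chr4:10197244-10198191, log2 fold change -1.70). Near Bmp2, a ligand of the same family, 3 of 22 members fell and none rose.

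Motif matches were read from the deposited table, which lists matches for 56 factors. A match to at least 1 of the factors was listed for 5490 members (60.9%). Members with a forkhead match (2463) fell more often than the 6558 without, at 10.0% against 5.32%, and rose in 2.11% against 2.58%. The difference in losses had the same direction in all 14 other fits, with ratios of 1.70 to 2.03, although their number went from 247 to 58 without E14.5 replicate 3 and to 82 without P0 replicate 1. It was present at 100 to 300 kb (8.66% against 4.09%) and beyond 300 kb (11.7% against 7.01%), and in each class of width (11.4% against 6.11%, 12.9% against 6.42% and 7.04% against 3.09%, from narrow to wide). In the nearer intergenic set the shares that fell were 4.55% with a forkhead match and 2.05% without.

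Meis matches, for homeobox factors that work with Hox and Pbx proteins, were listed for 645 members. Of these, 60 fell and 7 rose, so that 9.30% fell against 6.40% of members without one. The losses numbered 17 without E14.5 replicate 3 and, with P0 replicate 1 left out, 25, and the direction of the difference held in all 14 other fits. By factor, 54 of 538 members with a Meis1 match fell (10.0%). With a Meis2 match 8 of 131 fell (6.11%), which was not above the 6.61% of all members. Members with a match to Six2, the factor that defines the progenitor pool, were called in 9 of 303 cases (2 rose, 7 fell, 2.97%), beside 9.27% without it. That count was 1 without E14.5 replicate 3, 2 without P0 replicate 1, 5 without E14.5 replicate 1 and 25 without E14.5 replicate 2. Smad matches, for factors downstream of TGF-beta and BMP receptors, were listed for 839 members (18 rose, 27 fell), and 3.22% of these fell against 6.95% of the others; their 45 calls were 7, 10, 23 and 81 without the same 4 libraries.

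The remaining families are given beside the 9.06% of all members that were called. Sox matches were listed for 1533 members (34 rose, 99 fell, 8.68% called), AP-1 matches for 467 (15 rose, 31 fell, 9.85%), Pax matches for 490 (9 rose, 25 fell, 6.94%) and E2F matches for 464 (14 rose, 22 fell, 7.76%). Maz matches were listed for 992 (36 rose, 39 fell, 7.56%) and Sall matches for 968 (28 rose, 35 fell, 6.51%), and these gave the most even splits. Without E14.5 replicate 3 these 6 families had 28, 6, 9, 5, 8 and 8 calls in this order, and without P0 replicate 1 they had 35, 7, 12, 6, 11 and 12. Without E14.5 replicate 1 they had 78, 20, 24, 15, 37 and 33. The 3531 members with no listed match were called in 9.09% of cases. A region can carry several matches, so the families overlap.

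**Figure D5:**
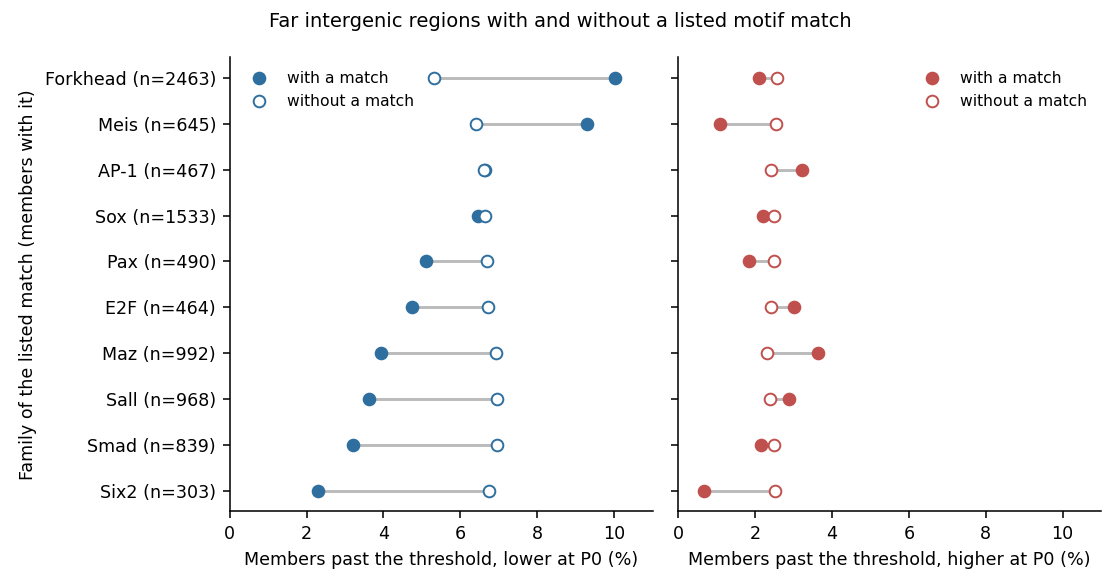
Percentage of far intergenic members that were lower (left) or higher (right) at P0, with (filled) and without (open) a listed match for each motif family; n is the number of members with a match. Forkhead and Meis matches show the largest filled over open gaps for losses, 10.0% against 5.32% and 9.30% against 6.40%.

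Catalogues of enhancers entered in the deposited table held few of the members that changed. FANTOM, which marks enhancers by the short transcripts they make, covered 409 members, of which 8 rose and 8 fell (3.91%), beside 9.06% of all members and 4.73% of all regions. Among FANTOM regions the called share was also low in the nearer intergenic set (2.07%) and over the whole table (2.17%). Calls among them numbered 0 without P0 replicate 1, 1 without E14.5 replicate 3, 8 without E14.5 replicate 1 and, with P0 replicate 2 left out, 9. VISTA, which lists DNA tested for enhancer activity in mouse embryos, covered 57 members, and 3 were called (5.26%, beside 2.81% of all regions in VISTA), of which 2 are named, chosen after their values were seen. Element 1689, between Fbxo8 and Hand2, a heart and limb gene, gave 20.8, 21.1 and 25.2 CPM at E14.5 and 13.5, 10.3 and 10.5 CPM at P0 (chr8:56982565-56984869, log2 fold change -0.96, edgeR adjusted p = 0.0170). Element 457, between the proto-oncogene Myc and Gsdmc, rose from 12.1, 19.3 and 12.3 CPM to 34.6, 26.8 and 23.4 CPM (chr15:62902095-62903913, log2 fold change 0.95, edgeR adjusted p = 0.0302). The stages did not overlap in these elements.

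The stages overlapped in the 4 members with the highest mean CPM. That between Ly6c1 and Ly6c2, near-identical genes of a surface antigen, gave 697, 216 and 598 CPM at E14.5 and 447, 927 and 342 CPM at P0 (503.5 ± 254 and 572 ± 312, SD, n = 3), which overlapped (edgeR adjusted p = 0.861). That beyond Fgf14 at the end of its chromosome gave 783, 330 and 399 CPM and then 454, 739 and 325 CPM (edgeR adjusted p = 0.996). The other two lay between 4930467E23Rik and 9530057J20Rik and between LOC100862468 and Vmn1r2, with edgeR adjusted p of 0.587 and 0.990. In 3 of the 4, E14.5 replicate 2 was low and P0 replicate 2 was high within its stage.

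The authors' deposited table also gives its own class for each region. It calls 340 members Opening (3.77%, beside 2.86% of all regions) and 459 Closing (5.09%, beside 2.48%), and the rest Stable. All 221 members that rose in the edgeR test were in the Opening class. Of the 596 that fell, 441 were in the Closing class and 155 in the Stable class. In both accounts more far regions closed than opened by birth. The accounts rest on different tests and cut-offs, so their counts are not directly comparable. Over all regions they differ in direction, with 1243 Opening and 1081 Closing in the authors' class and 778 higher and 1281 lower in the edgeR test.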

How the data were processed

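ATAC-seq libraries from 3 E14.5 and 3 P0 pools of nephron progenitors were analysed. The authors deposited a single table of regions on mm10 (per the submitters' processing notes) with raw counts per library; the aligner and peak caller are not given in the sources used here. The table's log2 fold change, t and B scores and p-values, as deposited by the authors, were not used; its stage class was copied as the authors' own. Of 45489 rows, 1966 repeated a region listed for several features, which left 43523 distinct regions. Table coordinates are printed as given by the files.

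Stages were compared with edgeR 4.0.16 in R 4.3.3 (TMM scaling, quasi-likelihood fit, Benjamini-Hochberg adjustment over all regions, threshold 0.05); filterByExpr removed 0 regions. CPM used TMM-scaled library sizes, SE was derived from the fold change and its F statistic, and the common biological coefficient of variation was 0.211. PCR reads carry no molecular identifiers, so precision beyond the spread between litters is not given. The procedure was tested on simulated data for this comparison over 43523 regions: of 200 regions changed 2-fold, 37.5% were recovered and 7 unchanged ones were called.

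Flanking genes are the nearest of 21887 RefSeq protein-coding genes (GRCm38.p6). Lists that match by gene name prefix left out genes that only share letters, such as Slitrk under Slit. Regions were named by rule: the 8 largest losses and 6 largest gains with stages that do not overlap, the 4 with the highest CPM, the 3 farthest, up to 4 called members per gene list and the 3 intervals with most calls. Of these 41 regions, 34 were past the threshold; some of them are not reported here. Members and lists were chosen with earlier results of these data known. Alternatives used other scalings, filters, distances, thresholds, region sets, limma-voom (limma 3.58.1), DESeq2 1.42.0, the replicate number as a block, and each library left out. Figures and counts were made with Python 3.11.15, pandas 2.3.3 and matplotlib 3.10.9.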

Additional observations from a re-analysis of the deposited data

How the results depend on the processing

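With 3 libraries a stage, the count of calls rests on single libraries: leaving out each in turn gave 161 to 1117 called members, 12 to 551 higher and 149 to 580 lower, a median log2 fold change of -0.040 to 0.158 and a difference in the share of counts of 0.208 to 1.603 percentage points. An adjusted p under 0.01 gave 245 members (31 higher, 214 lower) and one under 0.1 gave 1248 (436 higher). Distances over 200 kb left 133 higher members, and over 500 kb 222 called (38 higher, 184 lower), from fewer regions. Replicate numbers did not pair the samples, since deviations of same-numbered libraries correlated at 0.07, -0.14 and 0.08; with the replicate number as a block, 744 members were called (203 higher, 541 lower), 695 of them among the 817. DESeq2's Wald test called 1040 and limma-voom 765. A member list without the 192 regions found to hold a RefSeq start, chosen after seeing the data, gave 804. Of the 34 named regions past the threshold, 29 stayed so in all alternatives. The median log2 fold change turned negative without P0 replicate 2 (-0.040), where the ratio of far to nearer shares for gains also turned (0.94). Among named regions, direction was lost in 4, all uncalled. The cause of these turns was not tested. The region beyond Fgf14 had a log2 fold change of -0.00096 with DESeq2 size factors, -0.00079 with the DESeq2 Wald test and -0.11 when fitted on intergenic regions only, and -0.37 to 0.47 with a library left out. The region near Vmn1r2 had -0.0038 with limma-voom, -0.029 with the replicate block, -0.11 on intergenic regions only and -0.34 to 0.22 with a library left out. Those ranges were -0.35 to 0.49 at Ly6c1 and -0.56 to 0.35 in the farthest member. At 89 to 143 counts in a median member, many 2-fold changes would go uncalled.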

Other observations

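On chromosome 10, 3 regions in a cluster of zinc finger genes that hold the starts of Zfp781, of Zfp873 with Gm46195, and of Gm10777 fell at P0, with log2 fold changes of -1.08, -1.07 and -0.83, and how reads were placed among genes of this family was not tested. These 3 were singled out after their values were seen. Enhancer to gene links in the deposited table were not used: of 37729 links from 3862 far members to genes with a name, 161 named a gene on the member's own chromosome, and the same held for 998 of 183214 links over all regions.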
